A study of Mus musculus with 8 samples.

Results

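A set of 10 genes of fatty acid synthesis were followed by RNA sequencing of mouse cortex at an embryonic stage, in 4 Taf8-deleted and 4 Taf8 wild-type embryos. They are Acly, Acaca, Fasn, Acsl3, Elovl6, Elovl5, Scd1, Scd2, Fads1 and Fads2, and all 10 were found by symbol among the 27179 genes of the count table. Scd1 was selected on its measured fold change between Taf8-deleted and wild-type cortex in these same 8 libraries, where it was among the most negative, and the other genes were chosen with those values known. Their differences between the groups are therefore given as a description, without a p-value, and nothing is inferred from how many of them differ. Taf8-deleted embryos are labelled Taf8 -/lox and wild-type embryos Taf8 +/+. The Taf8 protein is part of TFIID, a general transcription factor that recognises core promoters for RNA polymerase II. The sources used here do not give the age of the embryos, the agent that deleted the lox allele or the cells it acts in.

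Fatty acids are built in the cytosol from citrate that leaves the mitochondria. Acly releases acetyl-CoA from that citrate, Acaca makes malonyl-CoA from it, and Fasn joins these units into palmitate. Elovl enzymes lengthen the chain, Scd enzymes make monounsaturated from saturated fatty acids, and Fads1 and Fads2 act on polyunsaturated ones. In the growing brain these lipids go into the membranes of dividing cells and of extending axons and dendrites, and later into myelin. The transcription factor SREBP-1, encoded by Srebf1, is known to switch on most of these genes, and liver X receptors are known to raise Srebf1.

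Libraries held 26312505 to 65523487 counts, so 3 counts correspond to 0.0469 to 0.112 CPM (counts scaled to library depth, with trimmed mean of M-values factors), a floor that covers counting error only. Taf8 itself averaged 0.643 ± 0.149 CPM in Taf8-deleted cortex and 34.8 ± 2.75 CPM in wild-type cortex (SD, n = 4 each, as for every mean below). Emx1, a marker of the dorsal forebrain, was present in both groups, at 59.4 ± 3.24 CPM in Taf8-deleted cortex and 72.4 ± 5.46 CPM in wild-type cortex. Wild-type replicate 3, the deepest library, differed most from its group, a measure that grows with depth, with a chi-square per degree of freedom of 23.2 to 28.4 in its 3 pairs and 4.98 to 7.28 in the other wild-type pairs. Leaving it out moved the log2 fold change of Scd1 to -2.92 and that of Scd2 to -0.96. No first part of an animal number occurs in both groups, so anything that this part marks cannot be told apart from the genotype. Wild-type replicates 1 to 3 share theirs, while the Taf8-deleted embryos all differ. Whether those wild-type embryos are as independent of one another as n = 4 implies was not tested. Each library came from its own embryo.

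Scd1 RNA was the lowest of the 10 in both groups and differed the most between them, while Scd2, its close relative, was abundant throughout. Scd1, the stearoyl-CoA desaturase gene known from liver and fat (Entrez gene 20249, chromosome 19, 44394450 to 44407709, minus strand, mm10), had 3.45, 3.41, 3.29 and 3.62 CPM in the 4 Taf8-deleted libraries, against 29.6, 25.5, 21.8 and 23.8 CPM in the wild-type libraries. Every Taf8-deleted value lay far below every wild-type value. These levels rest on 131, 105, 88 and 192 counts in Taf8-deleted cortex and 892, 1023, 1393 and 906 counts in wild-type cortex. The log2 fold change was -2.86 (SE 0.10), or 7.26-fold lower, and 5 of the 15649 genes tested had a lower one. The Taf8-deleted embryos were close to one another, with a coefficient of variation of 4.01% for Scd1, against 13.2% among wild-type embryos. Genes within 1.5-fold of its mean over all 8 libraries had a median coefficient of variation of 6.58% in Taf8-deleted and 7.4% in wild-type cortex. That mean lies between the group levels of Scd1, so those genes were not matched to its level in either group.

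Scd2, the desaturase gene known as the main form in the mouse brain (gene 20250, chromosome 19, 44293676 to 44306864, plus strand), had 797, 777, 819 and 843 CPM in Taf8-deleted libraries, against 1647, 1557, 1485 and 1498 CPM in wild-type libraries. The groups did not overlap, and the log2 fold change was -0.94 (SE 0.04). Per kilobase of gene length Scd2 averaged 148 ± 5.24 CPM in Taf8-deleted and 284 ± 13.5 CPM in wild-type cortex, and Scd1 0.712 ± 0.0285 CPM in Taf8-deleted and 5.2 ± 0.686 CPM in wild-type cortex, so the larger difference in amount was that of Scd2. The ratio of Scd1 to Scd2 per kilobase, which does not depend on how libraries are scaled, was 0.00489, 0.00495, 0.00453 and 0.00485 in Taf8-deleted libraries and 0.0203, 0.0185, 0.0165 and 0.0179 in wild-type libraries. There were thus 202 to 221 units of Scd2 RNA for each unit of Scd1 in Taf8-deleted cortex, and 49.4 to 60.5 in wild-type cortex.

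The coding sequences of Scd1 and Scd2 are 90.3% identical over 1065 aligned bases of GENCODE transcripts. A stretch of read length, 81 bases, is printed for each because the Scd1 level rests on telling such reads apart. It starts at coding base 151 in Scd1 and 160 in Scd2, and capitals mark the 5 bases at which the pair differ, the median over 911 such stretches, which differ at 0 to 30 bases.
Scd1: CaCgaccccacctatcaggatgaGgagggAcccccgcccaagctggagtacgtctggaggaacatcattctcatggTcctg
Scd2: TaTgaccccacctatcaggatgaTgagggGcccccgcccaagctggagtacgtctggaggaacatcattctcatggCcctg
Of the 81-base windows of Scd2 transcripts, 67 of 5461 (1.23%) also occur in Scd1. Spread evenly, that part of Scd2 would equal 9.92 CPM in Taf8-deleted and 19 CPM in wild-type cortex, beside a mean Scd1 level of 3.44 CPM in Taf8-deleted and 25.2 CPM in wild-type cortex. Reads were paired, so a mate outside such a window could still tell the genes apart. Of the 81-base windows of Scd1 transcripts, 148 of 4888 (3.03%) also occur in transcripts of other genes. The sources used here do not state how reads that match several genes were counted, so the low Scd1 level is uncertain. Scd3 and Scd4, the other desaturase genes of the same stretch of chromosome 19, were scarce. Of their 81-base windows, 3.03% for Scd3 and 1.46% for Scd4 also occur in transcripts of other genes, Scd1 and Scd2 among them. The levels of Scd3 and Scd4 are therefore uncertain for the same reason. Scd3 had 1.79, 2.11, 1.72 and 1.68 CPM in Taf8-deleted and 0.63, 0.698, 1.35 and 1.42 CPM in wild-type libraries, and rose by edgeR's quasi-likelihood test (log2 fold change 0.80, SE 0.26, adjusted p = 0.0202). That call was lost without deleted replicate 2 (adjusted p = 0.0604) or without wild-type replicate 2 (adjusted p = 0.0593). Scd4 fell to 0.197 ± 0.0763 CPM in Taf8-deleted cortex, against 0.52 ± 0.132 CPM in wild-type cortex (log2 fold change -1.37, SE 0.32, adjusted p = 0.00373), on 4 to 14 counts in Taf8-deleted and 13 to 39 in wild-type libraries.

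**Figure D1:**
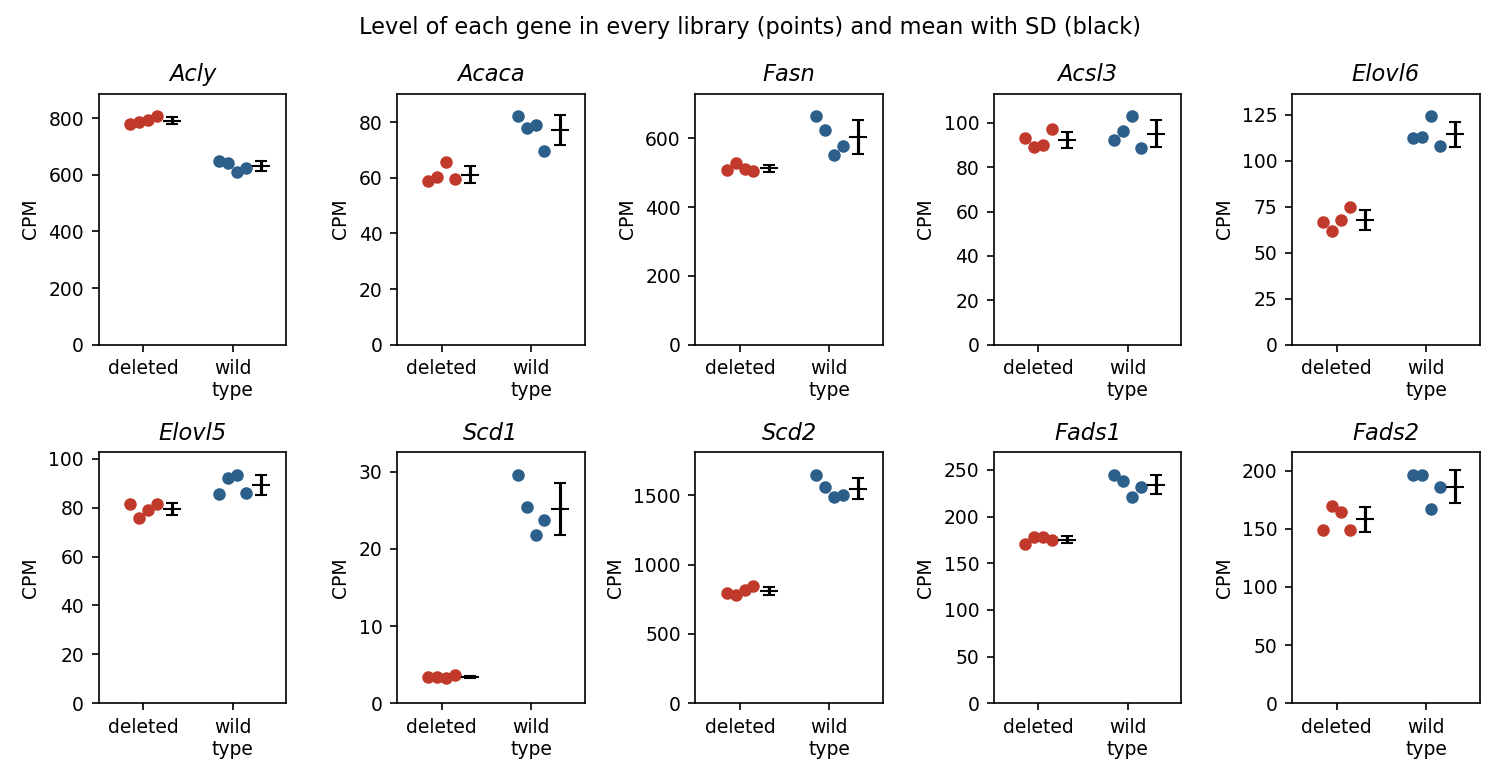
Level in CPM of each of the 10 genes in every library (points), with the mean and SD of 4 embryos per group in black, Taf8-deleted on the left of each panel and wild-type on the right, axes from 0. Acly is the gene with all Taf8-deleted points above all wild-type points, Acsl3 and Fads2 have overlapping groups, and Scd1 stands at 3.44 CPM in Taf8-deleted against 25.2 CPM in wild-type cortex.

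Of the genes that supply and assemble the chain, Acly was higher in Taf8-deleted cortex while Acaca and Fasn were modestly lower. Acly (gene 104112, chromosome 11, 100476352 to 100528000, minus strand), which encodes ATP citrate lyase, had 778, 785, 795 and 806 CPM in Taf8-deleted libraries, against 649, 642, 608 and 623 CPM in wild-type libraries. All 4 Taf8-deleted values were above all 4 wild-type values, with a log2 fold change of 0.33 (SE 0.03). Acaca, encoding acetyl-CoA carboxylase, the rate-limiting step (gene 107476, chromosome 11, 84129635 to 84401651, plus strand), had 59.0, 60.5, 65.7 and 59.5 CPM in Taf8-deleted libraries, against 82.1, 77.8, 79.2 and 69.7 CPM in wild-type libraries. Its groups did not overlap, although wild-type replicate 4 came close to deleted replicate 3. The log2 fold change of Acaca was -0.34 (SE 0.06). Of the 81-base windows of Acaca transcripts, 26% also occur in transcripts of other annotated genes, while for Acly and Fasn that share was 0%.

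Fasn, the fatty acid synthase gene (gene 14104, chromosome 11, 120805958 to 120825166, minus strand), had 509, 527, 510 and 505 CPM in Taf8-deleted libraries, against 664, 625, 552 and 577 CPM in wild-type libraries. The groups were separate but close, with deleted replicate 2 just under wild-type replicate 3, and the log2 fold change was -0.24 (SE 0.05). Fasn varied less among Taf8-deleted embryos, with a coefficient of variation of 1.97%, than among wild-type embryos, at 8.25%. Genes of similar level had medians of 3.86% and 4.64% in those groups. Acsl3 (gene 74205, chromosome 1, 78657825 to 78707743, plus strand) activates long-chain fatty acids to acyl-CoA, the form in which they are used. It had 92.9, 89.1, 90.1 and 97.2 CPM in Taf8-deleted libraries, against 92.3, 96.3, 103 and 88.6 CPM in wild-type libraries, so the groups overlapped through most of their range. Its log2 fold change of -0.04 was smaller than its SE of 0.05. Acsl3 overlaps Utp14b on the same strand, and 2.87% of its 81-base windows are shared with that gene.

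RefSeq promoter sequences of GRCm38.p6 were found for 7 of the 10 genes, Acsl3, Elovl6, Elovl5, Acaca, Acly, Fasn and Fads2. Since deletion of a TFIID subunit is at issue, they were searched on both strands for core promoter and lipogenic motifs, from 250 bases before the start to 50 after it. The TATA box was searched as TATAAA and the CCAAT box by its name. The GC box was searched as GGGCGG, the E-box as CACGTG and an SREBP-type element as TCACNCCAC, and matches of different motifs were allowed to overlap. Acly, the gene that was higher, is shown beside Fasn and Elovl6, which were lower by a small and a larger amount. These lie at chr11:100527951-100528250 on the minus strand, chr11:120824498-120824797 on the minus strand and chr3:129532136-129532435 on the plus strand, and capitals mark motif matches.
Acly: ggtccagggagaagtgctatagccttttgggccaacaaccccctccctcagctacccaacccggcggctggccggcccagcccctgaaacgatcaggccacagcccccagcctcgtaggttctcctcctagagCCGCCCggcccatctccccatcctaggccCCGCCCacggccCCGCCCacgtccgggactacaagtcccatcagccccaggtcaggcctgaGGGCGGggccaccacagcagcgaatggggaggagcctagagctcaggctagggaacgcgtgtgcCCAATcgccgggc
Fasn: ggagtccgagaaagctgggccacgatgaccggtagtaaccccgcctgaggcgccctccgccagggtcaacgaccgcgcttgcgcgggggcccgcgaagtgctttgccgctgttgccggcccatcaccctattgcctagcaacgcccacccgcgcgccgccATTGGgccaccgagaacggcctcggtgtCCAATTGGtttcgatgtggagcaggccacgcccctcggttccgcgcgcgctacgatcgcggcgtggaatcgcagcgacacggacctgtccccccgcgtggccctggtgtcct
Elovl6: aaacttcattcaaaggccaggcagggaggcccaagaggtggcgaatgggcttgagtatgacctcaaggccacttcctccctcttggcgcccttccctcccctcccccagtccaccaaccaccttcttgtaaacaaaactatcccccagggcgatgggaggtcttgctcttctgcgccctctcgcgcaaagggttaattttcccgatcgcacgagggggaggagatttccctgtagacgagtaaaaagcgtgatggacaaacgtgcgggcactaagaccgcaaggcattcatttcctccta
TATAAA was in 0 of the 7 windows, against 13.6% of 32851 promoters in the table and 7.51% of the 15090 promoters of genes tested here. TCACNCCAC was in 0 of 7, against 1.24% of all and 1.17% of tested promoters. CCAAT was in 4 of 7 (Acsl3, Elovl5, Acly and Fasn), against 37.4% of all and 37.6% of tested promoters. GGGCGG was in 3 of 7 (Acsl3, Acly and Fads2), a share above the 35.7% of all promoters and below the 61% of tested promoters. CACGTG was in 1 of 7, that of Elovl5, against 7.15% of all and 9.5% of tested promoters. The windows of Elovl6 and Acaca held none of the 5 motifs. The Acaca window, at chr11:84195188-84195487, lies inside the gene bounds given above, at an internal start, and so does that of Fasn, so neither describes the outermost start of its gene. GC content was 68.7% for Acly, 69.3% for Fasn and 55.7% for Elovl6, against a median of 52.7% over all promoters. Over the 7 windows it ran from 39.7% for Acaca to 74% for Acsl3. The median for promoters of tested genes alone was not computed.

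Of the elongases, Elovl6 was clearly lower in Taf8-deleted cortex and Elovl5 only slightly. Elovl6 (gene 170439, chromosome 3, 129532386 to 129638495, plus strand) lengthens palmitate to stearate, the substrate of the Scd enzymes. It had 66.7, 61.7, 67.7 and 74.6 CPM in Taf8-deleted libraries, against 112, 113, 124 and 108 CPM in wild-type libraries. The gap between the groups was wider than the range within either, and the log2 fold change was -0.76 (SE 0.06). Elovl5 (gene 68801, chromosome 9, 77917365 to 77984519, plus strand), which lengthens polyunsaturated fatty acids, had 81.6, 76.0, 79.0 and 81.5 CPM in Taf8-deleted libraries, against 85.6, 92.1, 93.5 and 86.1 CPM in wild-type libraries. Its groups did not overlap, with a log2 fold change of -0.17 (SE 0.04). The ratio of Elovl6 to Elovl5 per kilobase was 0.382, 0.380, 0.401 and 0.428 in Taf8-deleted libraries and 0.614, 0.574, 0.621 and 0.587 in wild-type libraries, also without overlap.

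The desaturases of polyunsaturated fatty acids were lower by smaller amounts than Scd1 or Scd2. Fads1 (gene 76267, chromosome 19, 10182877 to 10196874, plus strand), which acts late in the making of arachidonic acid, had 171, 178, 178 and 175 CPM in Taf8-deleted libraries, against 245, 239, 221 and 232 CPM in wild-type libraries. These groups were well apart, with a log2 fold change of -0.42 (SE 0.04). Fads2 (gene 56473, chromosome 19, 10062765 to 10101503, minus strand), which acts first in the same route, had 149, 170, 165 and 149 CPM in Taf8-deleted libraries, against 196, 196, 167 and 186 CPM in wild-type libraries. Wild-type replicate 3 lay within the Taf8-deleted range, and the log2 fold change was -0.23 (SE 0.06). The ratio of Fads1 to Fads2 per kilobase was 0.484 ± 0.0247 in Taf8-deleted and 0.549 ± 0.0205 in wild-type cortex. Fads3, their neighbour on chromosome 19, fell to 12.8 ± 0.82 CPM in Taf8-deleted cortex, against 16.2 ± 1.5 CPM in wild-type cortex (log2 fold change -0.34, edgeR adjusted p = 0.00428).

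**Figure D2:**
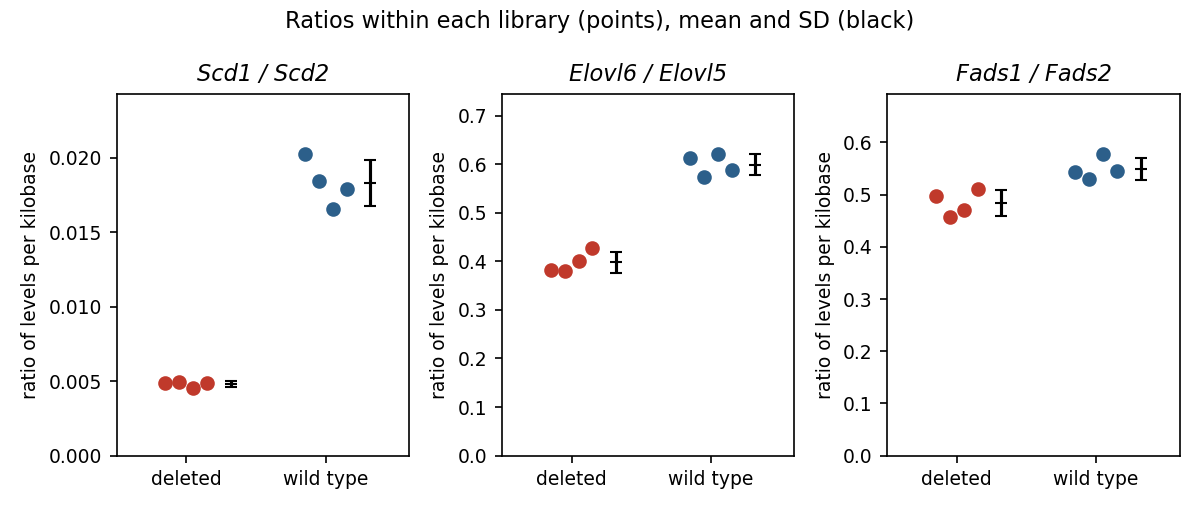
Ratio of levels per kilobase within each library for 3 pairs of related genes, Taf8-deleted on the left and wild-type on the right, with the mean and SD of 4 embryos in black and axes from 0. In Taf8-deleted and wild-type cortex Scd1 to Scd2 stands at 0.0048 and 0.0183, Elovl6 to Elovl5 at 0.398 and 0.599 and Fads1 to Fads2 at 0.484 and 0.549, without overlap in any pair.

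In the fit over all 15649 genes, 8 of the 10 had an adjusted p under 0.05 with a lower level in Taf8-deleted cortex, Acly had one with a higher level, and Acsl3 did not reach it. Over all genes tested 59.2% reached that threshold, 29.6% lower and 29.5% higher. The groups did not overlap for 8 of the 10, against 53.6% of all genes tested, with 7 lower and 1 higher against 27.0% and 26.6%. Nothing is read from these counts, since the genes were chosen on this contrast. The median log2 fold change of the 10 was -0.29, beside 0.01 over all genes tested.

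Ordered by level per kilobase of gene length, the 10 genes spanned a wide range, and 2 changes of place were seen between the groups. In Taf8-deleted cortex the order was Acly (179 ± 2.81 CPM per kilobase), Scd2 (148 ± 5.24), Fads2 (105 ± 7.04), Fasn (51.6 ± 1.02), Fads1 (50.7 ± 1.03), Elovl5 (28.6 ± 0.944), Acsl3 (23.4 ± 0.928), Elovl6 (11.4 ± 0.891), Acaca (6.77 ± 0.34) and Scd1 (0.712 ± 0.0285). In wild-type cortex it was Scd2 (284 ± 13.5 CPM per kilobase), Acly (143 ± 4.22), Fads2 (124 ± 9.24), Fads1 (67.7 ± 2.92), Fasn (60.8 ± 5.02), Elovl5 (32.1 ± 1.45), Acsl3 (24.1 ± 1.54), Elovl6 (19.2 ± 1.15), Acaca (8.55 ± 0.587) and Scd1 (5.2 ± 0.686). Fasn and Fads1 were neighbours whose ranges overlapped in both groups, and the ranges of no other neighbours did. Scd2 thus led in every wild-type library and Acly in every Taf8-deleted library. The summed level of the 10 genes was 593 to 612 CPM per kilobase in Taf8-deleted libraries and 734 to 805 in wild-type libraries, and Scd2 made up 23.6% to 25.3% of it in Taf8-deleted and 36.5% to 37.5% in wild-type libraries.

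**Figure D3:**
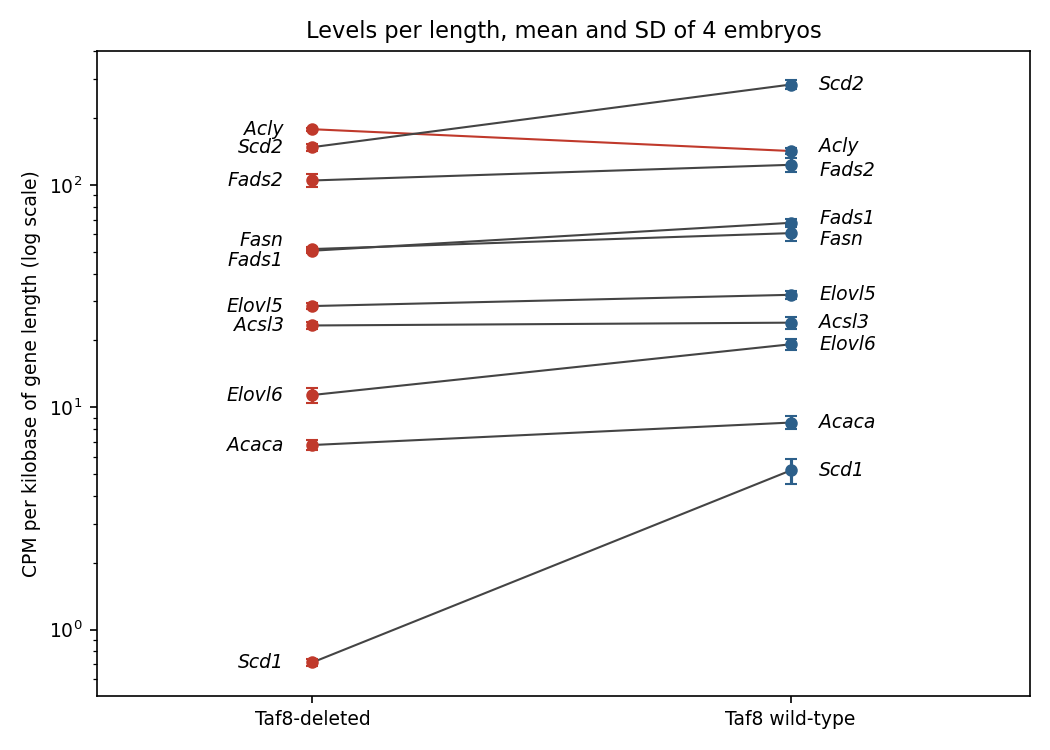
Mean level per kilobase of gene length with SD over 4 embryos, on a log axis, with lines joining each gene in Taf8-deleted cortex (left) to the same gene in wild-type cortex (right). The red line is Acly, which is higher in Taf8-deleted cortex and passes above Scd2 there, and Scd1 has the steepest line, at 0.712 CPM per kilobase in Taf8-deleted against 5.2 in wild-type cortex.

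Among wild-type embryos the genes did not all vary together. Acly, Fasn, Scd1, Scd2 and Fads1 were each highest in replicate 1 and lowest in replicate 3. Replicate 3 was the deepest library and differed most from its group. Srebf1 had the same extremes, at 111 CPM in replicate 1 and 76.5 CPM in replicate 3. So did genes outside the lipid lists, such as Nes and Vim, and a link to Srebf1 was not tested. Acsl3, Elovl5 and Elovl6 were instead highest in replicate 3. Among Taf8-deleted embryos replicate 4 held the highest value for 5 of the 10 genes and the lowest for 2.

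Markers of several cell types also differed between the groups, and their part in the levels above was not tested. In whole tissue, fewer cells of a type and less RNA per cell cannot be told apart. The summed level of 9 markers of cortical excitatory neurons was 3288 to 3709 CPM in Taf8-deleted libraries and 4384 to 4647 CPM in wild-type libraries, with 8 of 9 lower. Over all genes tested, to be read beside the counts of markers that follow, 29.6% were lower and 29.5% higher. Of 9 radial glia markers 6 were higher and 2 lower, with sums of 3075 to 3433 CPM in Taf8-deleted and 2242 to 2521 CPM in wild-type libraries. Of 8 tested markers of oligodendrocyte precursors and astrocytes 5 were lower, and the 9 on the list summed to 71.8 to 81.6 CPM in Taf8-deleted and 99.1 to 109 CPM in wild-type libraries. Within that sum Aldh1l1 averaged 6.2 ± 0.702 CPM in Taf8-deleted and 28.3 ± 1.15 CPM in wild-type cortex. Olig2 and Cspg4 had log2 fold changes of 0.13 and 0.16 and did not pass the test. Sums of 11 meningeal fibroblast markers were 91.4 to 237 CPM in Taf8-deleted and 66.5 to 103 CPM in wild-type libraries, with 7 of 10 tested higher. Those of 10 endothelial and pericyte markers were 233 to 290 CPM in Taf8-deleted and 189 to 196 CPM in wild-type libraries, with 10 of 10 higher. Deleted replicate 4 had the lowest meningeal sum of its group, within the wild-type range. Sums of 10 microglia and macrophage markers were 51.7 to 68.7 CPM in Taf8-deleted and 46.6 to 53.7 CPM in wild-type libraries, with 5 higher and 1 lower. Those of 8 red blood cell markers were 349 to 471 CPM in Taf8-deleted and 259 to 337 CPM in wild-type libraries, with 5 higher. The 8 adipocyte markers, of which Cidec and Lep had 0 counts, summed to 0.224 to 0.359 CPM in Taf8-deleted and 0.125 to 0.299 CPM in wild-type libraries, at or near 0 in both groups.

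Of 22 genes that control lipid synthesis, 9 fell, 4 rose and 9 did not pass edgeR's test, with a median log2 fold change of -0.10. That is 59.1% called, beside 59.2% of all genes tested, of which 29.6% were lower and 29.5% higher. Wild-type replicate 3 weighed on this count, since 13 were lower and 4 higher without it. Srebf1 fell to 56.4, 56.9, 58.1 and 55.5 CPM in Taf8-deleted libraries, against 111, 101, 76.5 and 98.7 CPM in wild-type libraries (log2 fold change -0.77, SE 0.09, adjusted p = 4.87e-05). All Taf8-deleted values were within a narrow band under the lowest wild-type one. Srebf2, the SREBP gene that mainly serves cholesterol synthesis, fell to 266 ± 9.58 CPM in Taf8-deleted cortex, against 366 ± 29.4 CPM in wild-type cortex (adjusted p = 6.37e-05). Nr1h2, the liver X receptor gene of most tissues, fell by 0.72 on the log2 scale to 37.4 ± 0.874 CPM, against 62.0 ± 6.27 CPM in wild-type cortex. Nr1h3, the other liver X receptor gene, was scarce and rose to 1.77 ± 0.24 CPM, against 1.12 ± 0.0998 CPM in wild-type cortex (log2 fold change 0.66, adjusted p = 0.00379).

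Thrsp, a lipogenic protein gene of liver and fat, fell to 0.405 ± 0.0865 CPM in Taf8-deleted cortex, against 1.94 ± 0.336 CPM in wild-type cortex, with a log2 fold change of -2.25 (SE 0.21). Its relative Mid1ip1, whose product promotes the assembly of acetyl-CoA carboxylase, fell by 0.38 on the log2 scale. Insig1, which holds SREBP in the endoplasmic reticulum and is itself an SREBP target, fell by 0.29 (adjusted p = 0.00193). Mlxipl, which encodes the carbohydrate-responsive factor ChREBP, rose to 3.53 ± 0.315 CPM in Taf8-deleted cortex, against 1.9 ± 0.247 CPM in wild-type cortex (log2 fold change 0.90, adjusted p = 0.000195).

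Of 24 other genes of fatty acid synthesis, elongation and desaturation, 8 fell, 6 rose and 10 missed the threshold. The 58.3% called was close to the 59.2% of all genes tested. Their median log2 fold change was -0.07. Elovl2, an elongase of very long polyunsaturated fatty acids, had 37.1, 34.9, 35.2 and 36.0 CPM in Taf8-deleted libraries, against 87.7, 83.1, 91.2 and 86.3 CPM in wild-type libraries. It fell by 1.28 on the log2 scale (SE 0.04, edgeR adjusted p = 1.61e-08). Aacs, which makes acetoacetyl-CoA from ketone bodies for lipid synthesis, fell by 0.61 to 49.6 ± 0.719 CPM, against 75.5 ± 2.61 CPM in wild-type cortex. Tecr, the reductase of the elongation cycle, fell by 0.36 while Hsd17b12, a ketoacyl reductase of the same cycle, rose by 0.32. Mcat and Cbr4, which belong to the separate fatty acid synthesis route inside mitochondria, rose 1.71-fold and 1.68-fold. Mcat stood at 50.5 ± 3.1 CPM in Taf8-deleted cortex and 29.6 ± 2.19 CPM in wild-type cortex. Acacb, the mitochondrial relative of Acaca that restrains fatty acid oxidation, was scarce, at 1.72 ± 0.453 CPM in Taf8-deleted and 1.29 ± 0.274 CPM in wild-type cortex, and did not pass (adjusted p = 0.122).

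Fatty acid oxidation genes were higher more often than lower, with 17 of 31 up, 3 down and 11 not past the test, and a median log2 fold change of 0.26. Eci1, an isomerase that allows unsaturated fatty acids to be oxidised, had 36.0, 40.5, 38.5 and 34.3 CPM in Taf8-deleted libraries, against 18.0, 16.7, 15.3 and 19.3 CPM in wild-type libraries (log2 fold change 1.11, SE 0.08, edgeR adjusted p = 1.22e-06). Decr1, a reductase of the same branch, rose 1.85-fold and Acox3, a peroxisomal acyl-CoA oxidase, 1.67-fold. Mlycd, which breaks down malonyl-CoA, rose 1.62-fold to 27.0 ± 1.21 CPM, against 16.6 ± 1.36 CPM in wild-type cortex. Etfa, which passes electrons from oxidation to the respiratory chain, rose 1.47-fold, and Echs1, a hydratase, 1.27-fold. Beside these, 29.5% of all genes tested were higher and 29.6% lower. The oxidation list was drawn up with earlier results of these data known, so its counts are no independent evidence.

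Of 28 genes that handle acyl-CoA and free fatty acids, 8 were higher and 8 lower, with a median log2 fold change of 0.02. The 57.1% called was close to the 59.2% of all genes tested. Without deleted replicate 2, 4 were higher and 7 lower, and without wild-type replicate 2, 5 were higher and 6 lower. Acot13, a thioesterase, rose by 0.64 to 22.3 ± 1.0 CPM, against 14.3 ± 0.657 CPM in wild-type cortex. Acbd4, an acyl-CoA binding protein gene, fell by 1.12 on the log2 scale, and Fabp3, a fatty acid binding protein gene, fell by 0.91. Fabp7, the fatty acid binding protein of radial glia, fell to 336 ± 27.3 CPM in Taf8-deleted cortex, against 480.2 ± 5.57 CPM in wild-type cortex (adjusted p = 1.72e-05). Fabp7 is also on the radial glia list, most of which was higher. Acsl6, an acyl-CoA synthetase gene of neurons, fell by 0.34, and the transporter gene Slc27a4 rose by 0.25.

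Of 33 glycerolipid and phospholipid synthesis genes 13 were higher, 6 lower and 14 missed the threshold. The 57.6% called was close to the 59.2% of all genes tested, of which 29.5% were higher and 29.6% lower. The median log2 fold change of the list was 0.03. Dgat2, which makes triglyceride, had 25.3, 28.7, 29.0 and 26.7 CPM in Taf8-deleted libraries, against 7.37, 7.67, 6.9 and 6.41 CPM in wild-type libraries. It rose by 1.95 on the log2 scale (SE 0.07, edgeR adjusted p = 3.75e-08), the largest rise in the 6 lists. Gpam, which starts glycerolipid synthesis, rose by 0.34 and Pcyt1a, of phosphatidylcholine synthesis, by 0.33. Pcyt1b, the relative of Pcyt1a, fell by 0.37, Lpin1, which makes diacylglycerol, fell by 0.61 and Lpcat3, which puts polyunsaturated chains into phospholipids, fell by 0.54.

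Cholesterol synthesis genes, which SREBP-2 is known to drive, were lower in 18 of 23 and higher in 1, with a median log2 fold change of -0.41, beside 29.6% of all genes tested lower and 29.5% higher. Stard4, a sterol carrier gene, fell by 1.08 to 16.5 ± 1.69 CPM, against 35.0 ± 1.81 CPM in wild-type cortex, and Acat2, of the entry step, fell by 0.87. Log2 fold changes were -1.12 for Fdps, -1.03 for Fdft1, -0.75 for Msmo1 and -0.68 for Sqle. Earlier results for the cholesterol genes were known when this list was drawn up, so it is no independent evidence.

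**Figure D4:**
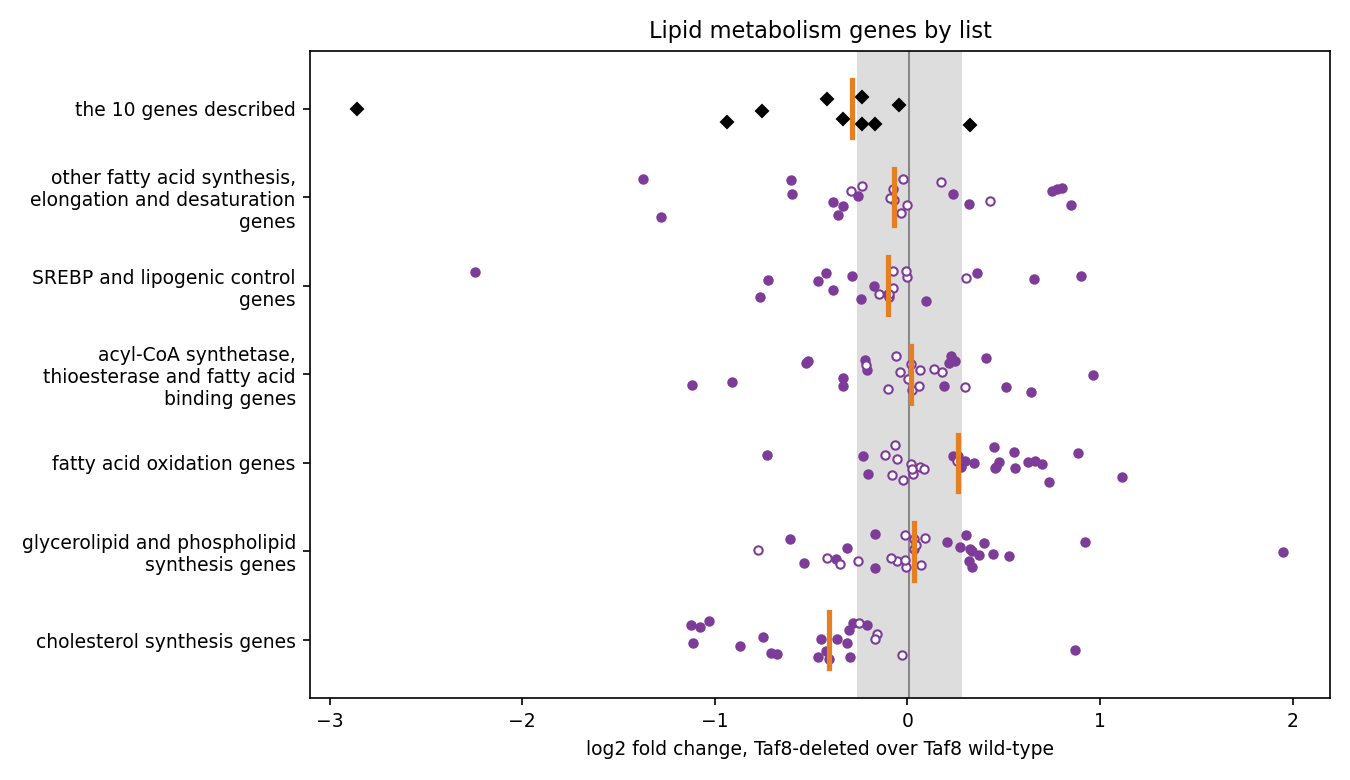
Log2 fold change of Taf8-deleted over wild-type cortex for each tested gene, by list, with the list median as an orange bar. Black diamonds are the 10 genes described, without a test, filled circles passed edgeR's test at an adjusted p under 0.05 and open circles did not. The grey band holds the middle 50% of all 15649 genes and the grey line their median of 0.01. Medians run from -0.41 for cholesterol synthesis to 0.26 for fatty acid oxidation.

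The 5 genes whose pattern over the 8 libraries was nearest to that of Scd1 were Sstr3, Aldh1a3, Gipr, Bcl6 and Dct, none of them on a lipid list. Likeness was the Euclidean distance between centred log2 CPM values, among 11745 genes with at least 5 CPM in the higher group, and the distances were 0.621, 0.659, 0.661, 0.863 and 0.95. Sstr3, a somatostatin receptor gene, had 1.41 ± 0.144 CPM in Taf8-deleted and 9.21 ± 1.3 CPM in wild-type cortex. Gipr, the receptor gene of an intestinal hormone, had 2.33 ± 0.446 CPM in Taf8-deleted and 16.8 ± 1.95 CPM in wild-type cortex. Aldh1a3 makes retinoic acid, Bcl6 is a transcriptional repressor and Dct belongs to melanin synthesis. The group difference itself dominates this measure, so it says little of how the genes vary among embryos of a group.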

How the data were processed

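Per the labels, RNA from embryonic cortex was made into stranded poly(A) libraries. The authors deposited raw read counts per gene, made per the submitters' processing notes with Subread 1.5.0 and featureCounts on mm10. The sources used here do not give the annotation, the strand setting or the counting of multi-mapping reads, so overlapping genes and close copies are uncertain. Gene length in the deposited table gave levels per kilobase. Symbols came from RefSeq for 25275 of 27179 genes.

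Groups were taken from the labels. edgeR 4.0.16 (R 4.3.3) tested these counts by quasi-likelihood, after filterByExpr and TMM scaling, with Benjamini-Hochberg adjustment over 15649 genes at 0.05. Standard errors are the log2 fold change over the square root of F. No set test was run. The 10 genes and all lists were chosen with earlier results of these data known. Besides the 10, genes were named as the 6 smallest adjusted p of each list, plus Srebf1, Srebf2, Insig1, Nr1h2, Nr1h3, Acacb, Scd3, Scd4 and Fads3, and the 5 genes most like Scd1. Values of some listed genes are not reported here. Steps were tested on simulated counts. Alternatives were other scalings, filters, DESeq2 1.42.0, limma voom (3.58.1), a replicate block, each library left out, a threshold of 0.01, and a shorter promoter window. Protein sequences were not used here, and coding sequences from GENCODE M21 took their place.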

Additional observations from a re-analysis of the deposited data

Results flagged for a closer look

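Among the named genes, 116 sets of 4 libraries were searched for a library far from its group (by Dixon's criterion on its gap to the nearest other library), and 4 were found, where chance gives about 1 in 20. None was in the 10 genes of fatty acid synthesis. Wild-type replicate 4 had 15.3 CPM of Acot13, against 13.8 to 14.1 in the other wild-type libraries. Deleted replicate 4 had 23.2 CPM of Lpin1, against 21.9 to 22.1 in the other deleted libraries. Wild-type replicate 4 had 11.1 CPM of Sstr3, against 8.42 to 8.76 in the other wild-type libraries. Wild-type replicate 1 had 11.1 CPM of Bcl6, against 13.3 to 13.6 in the other wild-type libraries.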

How the results depend on the processing

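The 10 genes kept their direction and their side of the threshold under all 17 alternatives, except that Acsl3, past it in none, had log2 fold changes of -0.0887 to 0.000475. The alternatives use the same libraries on which these genes were chosen, so keeping a side of the threshold is no independent evidence. The log2 fold change of Scd1 ran from -2.92 to -2.78, that of Scd2 from -0.97 to -0.89, that of Elovl6 from -0.82 to -0.71 and that of Acly from 0.30 to 0.37. At a threshold of 0.01, 3 other synthesis genes were higher, 5 acyl-CoA genes were lower and 4 higher, and 0 cholesterol genes were higher. Requiring 1 CPM in 4 libraries also left 0 cholesterol genes higher. Leaving out each library in turn gave 4 to 7 acyl-CoA genes higher, against 8 with all libraries, the fewest without deleted replicate 2, and 0 to 1 cholesterol genes higher. The cause of these differences was not tested. The median over all genes moved to 0.05 with library size alone. List medians moved by more than the spread between libraries in 12 of 119 cases, with no change of sign in the 119. Over the alternatives they ran from -0.10 to -0.02 for other synthesis genes, -0.14 to -0.06 for control genes, 0.01 to 0.06 for acyl-CoA genes, 0.23 to 0.32 for oxidation genes and 0.01 to 0.08 for glycerolipid genes. The numbers in the labels name different animals, and deviations of same-numbered embryos correlated at -0.285, 0.0138, -0.0668 and -0.464, so they share only a number. With a replicate block, 8 of the 10 genes were lower, 1 was higher, and 8285 of all genes were called. All genes called numbered 9257 without the block. The promoter window without the 50 bases after the start lowered CCAAT to 3 of 7. Scd3 and Scd4 rest on few counts, so depth limits them.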
